A study of Mus musculus with 11 samples.

Results

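Miox, Lrp2, Tmem174, Hsd3b4 and Wfdc15b were followed as genes of the kidney proximal tubule, the first stretch of the nephron, across 11 mouse RNA samples. The 5 genes were chosen by symbol, with their values on these arrays known, from 7114 genes that could be named, and 6 probes carried their symbols, 2 of them Lrp2 and 1 each the others. All 5 had a value on every array, as did 7035 of the 7114 genes. The choice rested on their level in the Kidney array, so that level is described and not tested.

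Each sample was hybridised on 1 cDNA array with 2 dyes, its own RNA in Cy3 and RNA of a mouse embryo reference in Cy5. The arrays were labelled D6_MEL, NRAS_MEL, HRAS_MEL and Melan A, which the series title on RAS isoforms in melanocytes places among melanocyte lines, 3T3 and VA_MEF, read as fibroblast lines, VA_475, for which the labels name no cell type, and Heart, Kidney, Liver and Lung. MEL in NRAS_MEL and HRAS_MEL was read as melanocyte, and the RAS isoform in each name is the only allele or agent that the labels give. Strain, age, sex, number of animals and clone were not given in the sources used here, and no label had a replicate array, so no error can be attached to the value of 1 array.

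Every value is the logarithm, read as base 2, of a sample's RNA over the reference, with the median of each array set to 0. This direction is likely rather than stated: organ marker genes lay far below 0 in the deposited table, so every sign was turned. Read the other way, as the sample titles could be, every signed value here would change its sign and the 5 genes would be lowest, not highest, in Kidney. A ratio to the reference is no level, so a higher ratio of one gene than of another does not mean more transcript.

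Proximal tubule cells recover most of what the glomerulus filters. They take proteins and carrier-bound vitamins from the filtrate by endocytosis, move sugars, amino acids and phosphate through carriers at the brush border, and break down or convert many small molecules. Lrp2 (megalin) is the large receptor of that endocytosis, and Miox opens the only known route that breaks the ring of myo-inositol. Tmem174 is a membrane protein of these cells that binds a phosphate carrier. Hsd3b4 belongs to the 3-beta-hydroxysteroid dehydrogenase family and works mainly as a ketosteroid reductase. Wfdc15b encodes a small secreted protein with a whey acidic protein (WAP) domain, a fold found in protease inhibitors and antibacterial proteins.

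The promoter windows of Wfdc15b, Hsd3b4, Miox and Lrp2 from RefSeq (assembly GRCm38.p6) are shown because these genes were high together in Kidney, the array on which they were chosen. The window of Tmem174 is not analysed here. Each runs from 250 bases before to 50 bases after a transcription start, 5′ to 3′ on the gene's strand. Capitals mark TTAATNATT, from the core of the site bound by HNF1 factors of kidney and liver, and TATAAA, the TATA box, each searched on both strands.
Wfdc15b, chr2:164221614-164221913, minus strand: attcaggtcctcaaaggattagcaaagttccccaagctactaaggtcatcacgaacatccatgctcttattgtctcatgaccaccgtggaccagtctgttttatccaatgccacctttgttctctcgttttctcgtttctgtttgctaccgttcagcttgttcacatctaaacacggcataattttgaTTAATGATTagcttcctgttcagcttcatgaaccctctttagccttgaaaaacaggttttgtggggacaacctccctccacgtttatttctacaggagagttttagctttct
Hsd3b4, chr3:98510518-98510817, minus strand: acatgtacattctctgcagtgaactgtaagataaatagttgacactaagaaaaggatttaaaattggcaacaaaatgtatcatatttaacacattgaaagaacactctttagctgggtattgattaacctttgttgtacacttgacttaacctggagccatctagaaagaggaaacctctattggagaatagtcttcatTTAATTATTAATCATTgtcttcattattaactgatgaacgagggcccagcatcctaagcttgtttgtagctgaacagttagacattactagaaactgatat
Miox, chr15:89334223-89334522, plus strand: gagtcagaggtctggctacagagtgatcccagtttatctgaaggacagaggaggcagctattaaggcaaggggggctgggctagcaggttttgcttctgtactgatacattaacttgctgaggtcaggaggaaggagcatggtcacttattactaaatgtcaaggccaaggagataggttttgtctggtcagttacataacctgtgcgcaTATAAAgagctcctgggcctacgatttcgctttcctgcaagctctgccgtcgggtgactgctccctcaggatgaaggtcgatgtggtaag
Lrp2, chr2:69585980-69586279, minus strand: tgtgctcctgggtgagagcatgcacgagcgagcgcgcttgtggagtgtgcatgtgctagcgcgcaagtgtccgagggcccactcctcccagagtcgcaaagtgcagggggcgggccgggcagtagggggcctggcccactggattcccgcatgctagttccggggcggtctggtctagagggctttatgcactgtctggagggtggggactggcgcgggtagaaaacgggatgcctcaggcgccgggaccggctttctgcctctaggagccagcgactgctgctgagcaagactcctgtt

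The HNF1 core lay in the windows of Wfdc15b and Hsd3b4, and in 484 of 32851 windows of that length in all, or 1.47%. In Wfdc15b it began 62 bases before the start. In Hsd3b4 it began 51 and 44 bases before the start, in matches that overlapped each other and a match on the opposite strand. A second Hsd3b4 start, with a window that overlaps the one shown, held the same matches. TATAAA lay in the Miox window, 40 bases before the start, and in the second Hsd3b4 window, against 13.6% of all windows. In that Hsd3b4 window it matched on both strands, after the start and not before it. CAAAGTCCA, a site of the factor HNF4, lay in 0 of the windows of these genes and in 0.475% of all. The Lrp2 window held 65.0% G and C, those of Miox, Wfdc15b and Hsd3b4 50.0%, 42.3% and 33.7%, and the median of all windows 52.7%. Motifs were picked after the sequences had been seen, and a match describes letters, not binding.

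Marker genes were set against the labels first. In the array labelled Kidney the proximal tubule list, without the 5 genes, had a median ratio of 1.90, against -1.16 to 0.61 on the other 10 arrays. Genes of other nephron segments and the collecting duct had a median of 2.02 there, against -0.45 to 0.056 elsewhere. Signs had been turned because of organ marker genes, and the lists were chosen with earlier results of these data known, so this is no independent check. With the signs turned, the label Kidney had its markers. Other labels did not: liver genes (4 measured) were highest in the array labelled Lung, lung epithelial genes (3 measured) in the array labelled Liver, and heart muscle genes (2 measured) in the array labelled Melan A. The median of those muscle genes was -0.96 on the Heart-labelled array. There the melanocyte list was mixed, from -3.41 for Ednrb to 2.94 for Mlph, with a median of -0.72. The median of the melanocyte list (5 measured) was highest in VA_MEF, where fibroblast genes had their lowest median, -2.49. The list was mixed there too, from -3.48 for Ednrb to 3.40 for Rab38. Its median was -0.59 on D6_MEL, -0.50 on NRAS_MEL and -0.99 on HRAS_MEL, against -0.93 on 3T3, so the median does not bear out the MEL labels. Single genes of the list went different ways on these arrays as well. Mlph stood at 3.18 on D6_MEL, 2.55 on NRAS_MEL and 2.36 on HRAS_MEL, against -0.71 on 3T3. Ednrb stood at -2.79, -2.41 and -2.98 on the same arrays, against -3.10 on 3T3. The 5 arrays labelled Liver, Lung, Melan A, Heart and VA_MEF, called doubtful below, keep their labels and were moved to no other group. For the kidney, pathway and fibroblast lists, a count of genes 2-fold higher or lower that changes without them is given both ways. Over all genes, without them, Kidney was at least 2-fold above the median of the other 5 arrays for 974 genes (13.8%) and 2-fold below it for 681 (9.66%). Those other 5 were 3T3, HRAS_MEL, VA_475, D6_MEL and NRAS_MEL, so without the doubtful arrays Kidney is compared with no other organ label.

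All 5 genes stood far above the other arrays in Kidney, and they held places 1 to 5 of 7035 genes by ratio on that array. Hsd3b4 was at 6.01, Miox at 6.0, Lrp2 at 5.60, Wfdc15b at 4.97 and Tmem174 at 4.85. The next genes were Rida at 4.66 and Acy3 at 4.52, an aminoacylase of the proximal tubule. By the difference from the median of the other 10 arrays, Hsd3b4 held place 2, Lrp2 place 4, Miox place 7, Wfdc15b place 11 and Tmem174 place 14. By the gap to the highest of the other 10 arrays the 5 genes again held places 1 to 5, and Cldn8, a claudin of distal tubule and collecting duct, came next at 4.22. All 5 were at least 2-fold above the median of the other arrays, as were 814 genes in all (11.6%), and all 5 were at least 2-fold above every other array, as were 99 genes (1.41%). The choice of the genes used this contrast, so nothing is read from these counts. In whole tissue, more cells of a type and more RNA per cell cannot be told apart.

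**Figure D1:**
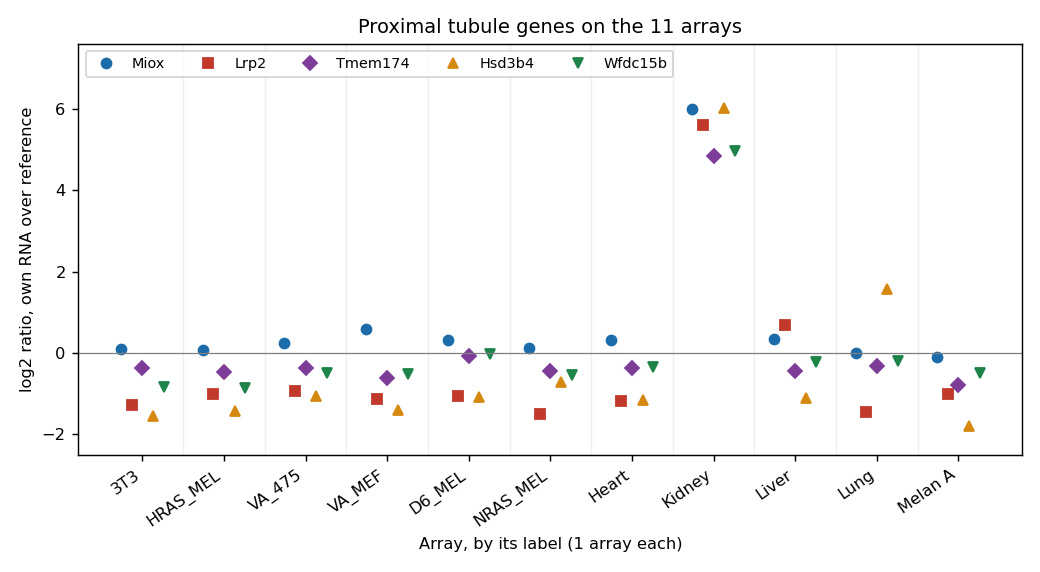
Log2 ratio of own RNA over reference (vertical axis) for the 5 genes on each of the 11 arrays (horizontal axis, 1 array per label, no error bars). All points in Kidney lie at 4.85 or above; elsewhere the highest are Hsd3b4 in the array labelled Lung at 1.59 and Lrp2 in the array labelled Liver at 0.68.

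Miox, the oxygenase that turns myo-inositol into glucuronate, was measured by 1 probe. Its ratio was 6.0 in Kidney, 0.59 in VA_MEF, 0.34 in the array labelled Liver, 0.32 in D6_MEL, 0.31 in the array labelled Heart, 0.25 in VA_475, 0.11 in NRAS_MEL, 0.10 in 3T3, 0.078 in HRAS_MEL, -0.0074 in the array labelled Lung and -0.09 in the array labelled Melan A. Kidney stood alone, 5.40 above the next array and 5.81 above the median of the others, a 56.2-fold difference. The other 10 arrays had an SD of 0.20, and 4.35% of genes had a smaller one; neighbours in their order lay at most 0.26 apart. That is less than the median distance of 0.34 between both probes of the 1324 genes that had 2, which is a distance between probes and not between arrays. Without a replicate array the order of the other 10 arrays is not resolved.

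Glucuronate made by Miox is reduced and oxidised stepwise to xylulose. Akr1a1, Cryl1 and Dcxr, the enzymes of that route described here, were higher in Kidney as well. Akr1a1, the glucuronate reductase, stood at 1.06 in Kidney and between -1.21 and 0.29 elsewhere. Cryl1, the gulonate dehydrogenase of the next step, stood at 2.65 in Kidney and between -0.43 and 0.46 elsewhere. Dcxr, the xylulose reductase, stood at 3.13 in Kidney but also at 3.05 in the array labelled Lung and 2.45 in the array labelled Liver, against -0.14 to 1.04 on the other 8. Slc5a11, a sodium-coupled inositol carrier, stood at 3.75 in Kidney and between -0.68 and 0.18 elsewhere. Kidney was the highest array for all of these and for Tkt, 5 of the 14 measured genes of the list besides Miox, against 8.94% of all genes, and Dcxr in Kidney lay only 0.08 above the array labelled Lung.

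Akr1a1, Cryl1, Dcxr and Slc5a11 were the 4 of those 14 genes of inositol and glucuronate metabolism at least 2-fold above the median of the other arrays (28.6%, against 11.6% of all genes), and 0 were 2-fold lower (6.43% of all). Without the 5 doubtful arrays the count was 5 (35.7%, against 13.8% of all genes), with Pgm1 added at 1.05. The list's median difference was 0.54, against 0.0056 over all genes. The other 10 lay within 2-fold. Ugdh, which makes UDP-glucuronate from UDP-glucose and feeds glucuronate by another branch, was the lowest, with a difference of -0.61, followed by Pgm2 at -0.12. Impa1, the inositol monophosphatase that frees inositol, had a difference of 0.56 and Pgm1 of 0.82.

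Lrp2 was measured by 2 probes, which lay between 0.048 and 0.67 apart on the 11 arrays, with a median distance of 0.22. Their mean was 5.60 in Kidney, 0.68 in the array labelled Liver, -0.93 in VA_475, -1.02 in the array labelled Melan A, -1.02 in HRAS_MEL, -1.05 in D6_MEL, -1.12 in VA_MEF, -1.19 in the array labelled Heart, -1.28 in 3T3, -1.44 in the array labelled Lung and -1.50 in NRAS_MEL. Lrp2 in Kidney was 6.69 above the median of the others, a 103-fold difference, and the probes taken singly gave 6.62 and 6.85. Lrp2 had a second array apart from the rest: the array labelled Liver stood 1.61 above the next, by 1.44 and 1.64 on the single probes, while the remaining 9 arrays lay at most 0.16 apart in order. Being 2-fold above all of those 9 was shared by 139 of 7035 genes (1.98%) for that array. Without the array labelled Liver, the gap from Kidney to the next array was 6.53 in place of 4.92.

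Of the genes that work with megalin, Lrpap1, Dab2 and Clcn5 were at least 2-fold higher in Kidney, whereas Cubn, Gipc1, Mapk8ip2 and Ankra2 were not. Lrpap1, the chaperone that escorts megalin through the secretory pathway, stood at 2.10 in Kidney and between -0.95 and -0.038 elsewhere, with the array labelled Liver second, as for Lrp2. Dab2, the adaptor that binds megalin's tail, stood at 2.04 in Kidney and between -2.41 and -0.56 elsewhere. Clcn5, the chloride and proton exchanger of the endosomes, stood at 2.82 in Kidney, 1.80 in D6_MEL, 1.38 in the array labelled Heart and at most 0.55 on the rest. Cubn (cubilin), the receptor that works beside megalin, was measured by 1 probe at 0.70 in Kidney and between -0.52 and 0.50 elsewhere, a difference of 0.68 that is under 2-fold. The adaptors Mapk8ip2, Gipc1 and Ankra2, which also bind megalin's tail, differed by 0.20, 0.081 and -0.46. Amn, the subunit that anchors cubilin, was not among the genes analysed here.

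Of the 29 measured genes in the endocytic list besides Lrp2, 6 were at least 2-fold above the median of the other arrays (20.7%, against 11.6% of all genes) and 0 were 2-fold lower (6.43% of all). Beside Lrpap1, Dab2 and Clcn5 these were the recycling factor Rab11fip1, with a difference of 1.53, and Clu (clusterin) and Ttr (transthyretin), plasma proteins that megalin binds, with 3.96 and 2.95. Clu, Ttr and Rab11fip1 were each higher on another array than in Kidney, Clu and Ttr on the array labelled Lung, which carried liver genes. The list's median was 0.34. The clathrin chains, the AP2 adaptor subunits and the small GTPases Rab5a, Rab7 and Rab11a all lay within 2-fold, with Ap2s1 the lowest of the list at -0.48. Without the 5 doubtful arrays 8 genes were 2-fold higher (27.6%, against 13.8% of all genes), with Rab7 added at 1.43 and the lysosomal protease Ctsb at 1.92.

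Other receptors of the LDL receptor family went different ways. Sorl1, a sorting receptor, differed by 2.72 in Kidney and stood at 1.85 there and 1.46 in the array labelled Liver. Vldlr differed by 1.27 but was highest in the array labelled Melan A, at 2.82. Lrp10 at 0.90 and Ldlrad4 at 0.61 were under 2-fold. Lrp1, the broadly expressed relative of megalin that is read here by 3 probes, was lower in Kidney, with a difference of -1.76 and a ratio of -1.36 against -1.56 to 1.55 elsewhere. Of the 6 measured besides Lrp2, with their chaperone Lrpap1 counted in, 3 were at least 2-fold higher and 1 was lower, against 11.6% and 6.43% of all genes.

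Tmem174 was measured by 1 probe. Its ratio was 4.85 in Kidney, -0.065 in D6_MEL, -0.32 in the array labelled Lung, -0.37 in VA_475, -0.37 in 3T3, -0.37 in the array labelled Heart, -0.45 in NRAS_MEL, -0.45 in the array labelled Liver, -0.46 in HRAS_MEL, -0.61 in VA_MEF and -0.78 in the array labelled Melan A. Kidney stood alone again, 4.91 above the next array and 5.26 above the median, a 38.3-fold difference. The other arrays had an SD of 0.19, and 3.24% of genes had a smaller one. Neighbours lay at most 0.25 apart, and without a replicate array their order is not resolved.

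The phosphate carriers of the brush border, Slc34a1 and Slc34a3, were not among the genes analysed here. Scaffold proteins that hold such carriers at the membrane were. Pdzk1 stood at 4.17 in Kidney, 1.48 in the array labelled Lung and at most -0.71 elsewhere. Its partner Pdzk1ip1 stood at 4.01 in Kidney, 0.056 in the array labelled Liver and at most -1.61 elsewhere. The related scaffold Slc9a3r1 stood at 1.36 in Kidney, 1.13 in the array labelled Lung and at most 0.016 elsewhere.

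Hsd3b4, measured by 1 probe, was the gene of highest ratio in Kidney and the one that varied most elsewhere. Its ratio was 6.01 in Kidney, 1.59 in the array labelled Lung, -0.72 in NRAS_MEL, -1.07 in VA_475, -1.09 in D6_MEL, -1.11 in the array labelled Liver, -1.15 in the array labelled Heart, -1.41 in VA_MEF, -1.44 in HRAS_MEL, -1.55 in 3T3 and -1.79 in the array labelled Melan A. Kidney was 7.14 above the median of the others, a 141-fold difference. The array labelled Lung, which carried liver genes such as Alb at 2.54, stood 2.31 above the next, and 261 of 7035 genes (3.71%) were at least 2-fold above the remaining 9 on that array. The other 9 arrays lay at most 0.34 apart in order. Without the array labelled Lung, the gap from Kidney to the next array was 6.74 in place of 4.43.

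Hsd3b1, the paralog of adrenal gland and gonads that makes progesterone from pregnenolone, was read by 2 probes and shared this order: 2.37 in Kidney, 1.49 in the array labelled Lung and between -1.55 and -0.70 elsewhere. Its difference in Kidney was 3.60, smaller than that of Hsd3b4. The genes of this family are close copies, and the part that cross-hybridisation has in either value was not tested. Among other steroid enzymes, Hsd17b4 (1.32) and Cyp17a1 (1.21) were at least 2-fold above the median in Kidney but had their highest ratios in the array labelled Lung, 2.60 and 4.05. Star, Hsd17b10, Nsdhl, Hsd17b12 and Cyp11a1 lay within 2-fold, from -0.44 for Cyp11a1 to 0.42 for Star. In all, 3 of 8 measured genes were 2-fold higher (37.5%, against 11.6% of all genes) and 0 lower (6.43% of all), with a median of 0.34, and Hsd3b1 alone was highest in Kidney.

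Wfdc15b was measured by 1 probe. Its ratio was 4.97 in Kidney, -0.018 in D6_MEL, -0.19 in the array labelled Lung, -0.22 in the array labelled Liver, -0.34 in the array labelled Heart, -0.48 in the array labelled Melan A, -0.49 in VA_475, -0.52 in VA_MEF, -0.54 in NRAS_MEL, -0.84 in 3T3 and -0.85 in HRAS_MEL. Kidney stood 4.99 above the next array and 5.46 above the median, a 44.0-fold difference. The other arrays had an SD of 0.27 and lay at most 0.30 apart in order.

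The near namesake Wfdc15a did not share the pattern, at -0.18 in Kidney and between -0.58 and 0.43 elsewhere, a difference of 0.0079. Wfdc2, a WAP protein of many epithelia, stood at 2.37 in Kidney but was highest in the array labelled Liver, at 4.95, against -3.59 to -1.26 on the other 9. Wfdc18 (0.0031) and Wfdc1 (-0.14) did not differ by 2-fold. Of the 4 measured relatives, 1 was at least 2-fold higher in Kidney and 0 lower, against 11.6% and 6.43% of all genes, with a median of 0.0055.

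The wider proximal tubule list covered 35 measured genes of 167 written, and 25 of them (71.4%, against 11.6% of all genes) were at least 2-fold above the median of the other arrays in Kidney, with 0 lower (6.43% of all). The count was also 25 without the 5 doubtful arrays, against 13.8% of all genes. Its median difference was 2.46. The largest were Gpx3, the secreted glutathione peroxidase made by these cells, at 10.4, Pdzk1ip1 at 6.93, Gatm of creatine synthesis at 6.05, Pdzk1 at 5.47, the carboxylesterase Ces1f at 5.31 and Acy3 at 4.73. The smallest were Havcr1, the injury marker Kim-1, at 0.13 and the haem synthesis enzyme Alad at 0.46. Among carriers, the amino acid transporters Slc7a8 and Slc6a20a differed by 3.80 and 2.46, and the carnitine carrier Slc22a5 by 3.29.

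The 5 genes differed from this list in the gap between Kidney and the next array. Kidney was the highest of the 11 arrays for 19 of the 35 genes, against 8.94% of all genes, and at least 2-fold above every other array for 13, against 1.41%. Without the 5 doubtful arrays these counts were 33 and 25, against 29.9% and 7.85% of all genes. No other organ label is then left to compare, and the array labelled Lung is among those dropped. For 10 genes the array labelled Lung was the highest of the 11, Ces1f (6.0 there), Bhmt (5.28) and Ttr (3.33) among them. None of the 35 had a gap to the next array as large as that of Hsd3b4, the smallest of the 5 genes at 4.43; Gpx3 came nearest at 4.07. As the 5 genes were picked for this property, the difference is a description.

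Other parts of the kidney were high in the same array. Of 15 measured genes of other nephron segments and the collecting duct, 9 were at least 2-fold higher (60.0%, against 11.6% of all genes) and 0 lower (6.43% of all), with a median of 2.29. S100g, a calcium-binding protein of the distal tubule, led at 5.79, followed by Cdh1 at 3.60, Tfcp2l1 at 3.36, Fxyd4 at 3.18, Ppp1r1b at 3.17 and Calb1 at 2.81. Of 9 genes of the glomerulus and interstitium, 4 were at least 2-fold higher (44.4%, against the same 11.6%) and 0 lower (against the same 6.43%). Kidney was the highest array for 3 of them, against 8.94% of all genes, and 2-fold above every other array for 0. The podocyte protein Podxl had the largest difference, 4.24, but stood at 1.55 in Kidney and 1.95 in the array labelled Liver. Without the 5 doubtful arrays 6 were 2-fold higher (66.7%, against 13.8% of all genes), with Cd2ap at 1.07 and Ehd3 at 1.30 added. Among 3 measured transcription factors of kidney epithelium, Emx2 differed by 2.86, Gata3 by 1.06 and Irx3 by 0.97. Of 11 fibroblast genes, 0 were 2-fold higher and 3 were lower, against 11.6% and 6.43% of all genes, with Fn1 at -2.54, Vim at -2.06 and Col6a1 at -1.81. Without the 5 doubtful arrays 1 was higher, Dcn at 1.21, and 5 were lower, with Col1a2 at -1.68 and Col5a2 at -1.28 added, against 13.8% and 9.66% of all genes. Of 3 measured red cell genes, 2 were at least 2-fold higher, against 11.6% of all genes. Hbb-b1 differed by 5.57, with a ratio of -2.30 in Kidney, 0.24 in the array labelled Liver and 0.20 in the array labelled Melan A, and the part of blood in the sample was not tested.

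**Figure D2:**
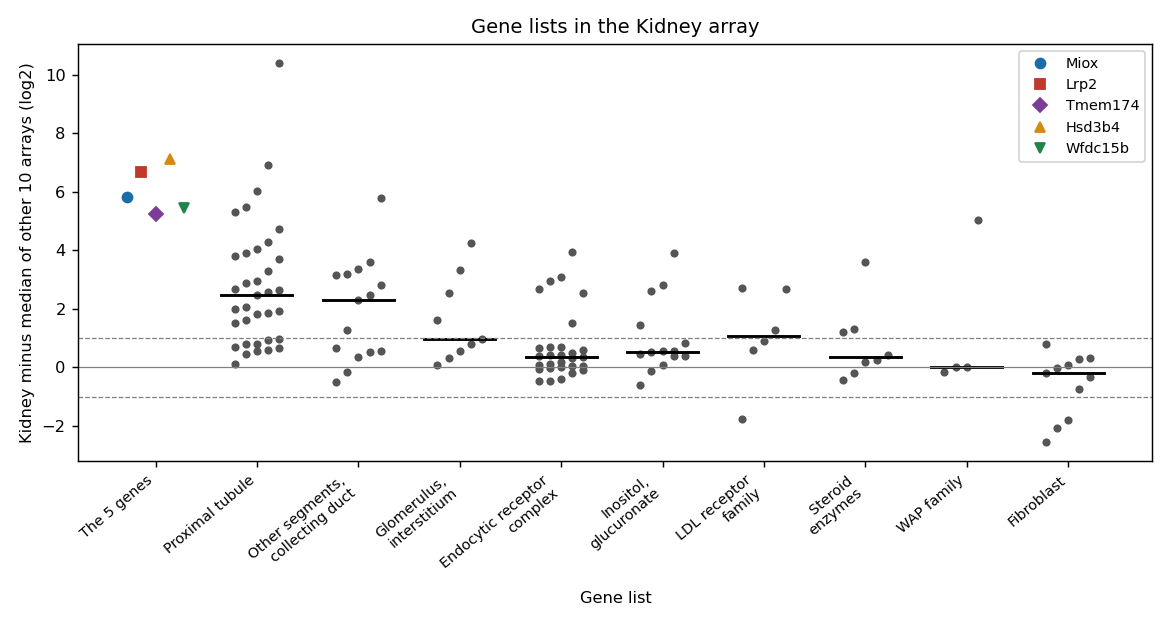
Kidney minus the median of the other 10 arrays, in log2 (vertical axis), for the 5 genes and for each measured gene of 9 lists (grey points, horizontal bar at the list's median, dashed lines at 2-fold). The 5 genes lie between 5.26 and 7.14, the proximal tubule list has its median at 2.46 and the fibroblast list at -0.21.

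Genes with the most similar pattern were taken by Pearson r over the 11 arrays with the mean of the 5 genes. Points share 1 reference RNA, and r is given as a description. The 10 closest were Atp6v0a4 (r = 0.990), Cldn8 (0.985), Tfcp2l1 (0.982), Slc6a20a (0.975), Fxyd4 (0.972), Zzef1 (0.971), Pdzd3 (0.966), Lrpap1 (0.962), Slc5a11 (0.958) and Slc7a8 (0.955). Atp6v0a4, a proton pump subunit of acid-secreting cells, Cldn8, the transcription factor Tfcp2l1 and Fxyd4, a regulator of the sodium pump, are known from the distal nephron and collecting duct; the 10 genes thus mix segments of the nephron. Zzef1 rests on 1 of its 2 probes, at 5.25 in Kidney while the other read 0.50. The high probe lies next to the Miox probe in the deposited table.

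These values rest on the Kidney array. Without it, r of the same 10 genes with the mean lay between -0.39 and 0.67, and 0 of them were among the 10 closest over the remaining 10 arrays. The same held among the 5 genes, whose 10 pairs had r between 0.857 and 0.990 over 11 arrays, and between -0.25 and 0.44 without Kidney. Taken singly, Miox and Tmem174 had Cldn8 as the closest gene (0.986 and 0.992), Lrp2 had its chaperone Lrpap1 (0.983), Wfdc15b had Fxyd4 (0.977) and Hsd3b4 had Pdzk1 (0.967).

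**Figure D3:**
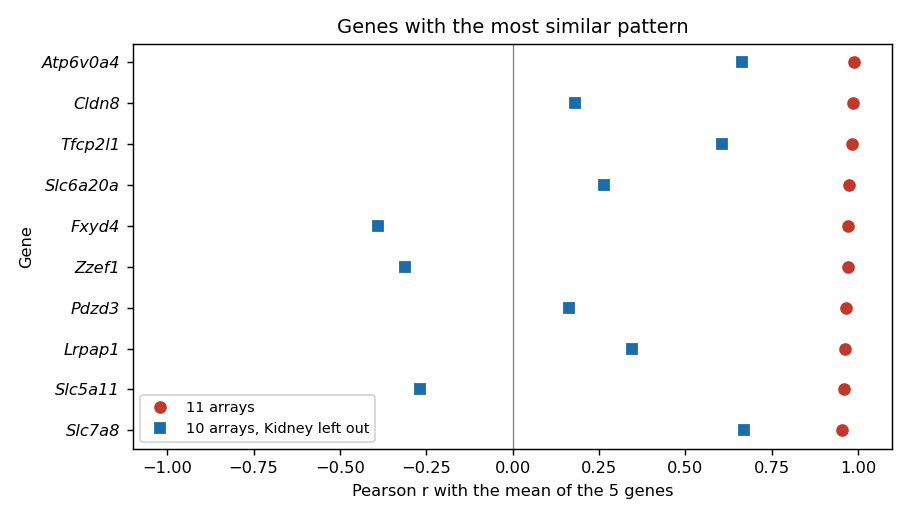
Pearson r (horizontal axis) between each of the 10 genes of most similar pattern (vertical axis) and the mean of the 5 genes, over all 11 arrays (circles) and over the 10 arrays other than Kidney (squares). With all arrays r lies between 0.955 and 0.990; without Kidney it lies between -0.39 and 0.67.

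With Kidney left out, Lrp2 and Hsd3b4 each had a second pattern, described by a rule set after the values were seen. Each pattern is 1 array above the next, by 1.61 for Lrp2 (labelled Liver) and 2.31 for Hsd3b4 (labelled Lung). Any r with it can rest on that array alone. Over the other 10 arrays the 5 genes closest to Lrp2 were Dynlrb2 (r = 0.962), Cbr2 (0.945), Gprc5a (0.939), Ccdc153 (0.931) and Sftpd (0.927), all highest in the array labelled Liver. Sftpd is a surfactant protein of the lung, and Cbr2 is a carbonyl reductase abundant there. Kidney did not share it: Sftpd was at 5.75 in the array labelled Liver and -2.10 in Kidney. Closest to Hsd3b4 were Timd2 (0.972), the vitamin E carrier Ttpa (0.971), the hepatocyte carrier Slco1b2 (0.969), the protease inhibitor Serpina1e (0.967) and Frrs1 (0.965), all highest in the array labelled Lung. Of these, Frrs1 alone had a ratio above the reference in Kidney, at 3.40 against 3.38 in the array labelled Lung. Slco1b2 stood at -0.75 in Kidney and 5.51 in the array labelled Lung. Serpina1e was at -3.62 in Kidney, below the array labelled Lung at 3.09 but above the other arrays, the highest of them at -5.29. Miox, Tmem174 and Wfdc15b had no second array above the rest by more than 0.26.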

How the data were processed

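RNA of 11 mouse samples was measured on 2-colour cDNA arrays, 1 per sample. The deposited values are log ratios, taken as log2, for 15247 probes (15170 to 15210 values per array); per the labels' protocols RNA came from Trizol and dyes were built in during reverse transcription. Scanner, background correction, normalization, log base and ratio direction were not given in the sources used here. Signal over background is unknown, and with 1 array per label the precision of a value cannot be estimated. Column medians lay between -0.035 and 0.030. Signs were turned, array medians were set to 0, and probes with 1 symbol in the platform annotation (9600; 214 had several and 5433 were unlisted) were averaged per gene, with 9492 matched by gene number to RefSeq GRCm38.p6 and 0 symbols changed. The lowest correlation of any pair of arrays over genes was 0.108.

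Kidney was compared with the median and the highest of the other 10 arrays, counting genes at least 2-fold apart (log2 of 1), in Python 3.11.15 with pandas 2.3.3. Each label had 1 array, so no test was made and no p-value is given. The functions were tested on simulated data with planted differences. Members and gene lists were chosen with earlier results of these data known. Named were the 5 genes, the ends of each list, all measured family members and the closest genes by r.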

Additional observations from a re-analysis of the deposited data

Results flagged for a closer look

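Probes without a single gene symbol entered none of the comparisons, yet 8 of the 5562 with a value on all arrays were at least 4-fold higher in Kidney than on every other array, as were 38 of the 7035 named genes. The highest Kidney value among all 5562 such probes was 4.60, on an unnamed probe beside one of the Lrp2 probes in the deposited table.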

How the results depend on the processing

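With the direction as deposited, Kidney minus the median of the others turned to -5.81 for Miox, -6.69 for Lrp2, -5.26 for Tmem174, -7.14 for Hsd3b4 and -5.46 for Wfdc15b, and Kidney minus the highest other array to -6.09 for Miox, -7.10 for Lrp2, -5.63 for Tmem174, -7.81 for Hsd3b4 and -5.83 for Wfdc15b. It left 452 genes at least 2-fold higher in Kidney in place of 814, and 0 in the proximal tubule, other nephron, endocytic and inositol lists. Read as natural logarithms, the differences from the median were 8.39 for Miox, 9.65 for Lrp2, 7.59 for Tmem174, 10.30 for Hsd3b4 and 7.88 for Wfdc15b, the gaps to the highest other array 7.80 for Miox, 7.10 for Lrp2, 7.09 for Tmem174, 6.39 for Hsd3b4 and 7.20 for Wfdc15b, and 1236 genes were 2-fold higher. Quantile normalization gave differences of 4.59 for Miox, 5.49 for Lrp2, 4.33 for Tmem174, 6.22 for Hsd3b4 and 4.44 for Wfdc15b. The gaps were 4.18 for Miox, 3.62 for Lrp2, 3.98 for Tmem174, 3.82 for Hsd3b4 and 4.03 for Wfdc15b. Only those of Hsd3b4 moved by less than the SD of the other arrays, the measure of spread used here. That SD was 0.95 for Hsd3b4, with the array labelled Lung included, and 0.19 for Tmem174. Without the 5 arrays whose markers went against their labels the gap was 5.68 for Miox, 6.53 for Lrp2 and 6.74 for Hsd3b4. At 4-fold, 298 genes were higher. By Spearman rho, or without Kidney, 0 of the 10 most similar genes were shared. Leaving out each other array in turn gave differences of 5.74 to 5.88 for Miox, 6.65 to 6.72 for Lrp2, 5.22 to 5.30 for Tmem174, 7.12 to 7.16 for Hsd3b4, 5.46 to 5.46 for Wfdc15b, gaps of 5.40 to 5.66 for Miox, 4.92 to 6.53 for Lrp2, 4.91 to 5.17 for Tmem174, 4.43 to 6.74 for Hsd3b4, 4.99 to 5.16 for Wfdc15b, 798 to 862 genes 2-fold higher, and 25, 9, 6 and 4 in the proximal tubule, other nephron, endocytic and inositol lists. Uncentred values, other ways to combine probes and a looser filter on missing values moved no result beyond that spread, or beyond 1.5 times for a count. No paired analysis was possible because each label has 1 array.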

Other observations

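Several genes outside the lists were also high in Kidney. The sodium pump subunit Atp1b1 differed from the median of the other arrays by 6.58, and the alkaline phosphatase Alpl, an enzyme of the brush border, by 5.45. By the gap to the highest other array, Ndrg1 stood at 3.94 and Pdzd3, a scaffold protein related to Pdzk1, at 3.66. Both gaps were smaller than that of Hsd3b4, the smallest of the 5 genes at 4.43. These were named after their values were seen.

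Probes next to those of the 5 genes in the deposited table were often high in Kidney too. Of 12 such neighbours, 3 were at least 4-fold above the median of the other arrays, against 3.94% of all probes. The Zzef1 probe beside Miox differed by 4.96, whereas the other Zzef1 probe, elsewhere in the table, differed by 0.22. The probe on the other side of Miox, for Fam210a, differed by 2.45, and an unnamed probe beside one of the Lrp2 probes by 4.47. The probes beside the other Lrp2 probe differed by 0.65 and -0.46. Over 15143 pairs of consecutive probes the differences correlated at 0.107, and over pairs 1 probe further apart at 0.0125. The cause was not tested.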
